A study of Homo sapiens with 6 samples.

Results

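A set of 9 genes of the hemidesmosome and of the basement membrane that it anchors to was followed over 6 arrays of HSC3 cells, a human cell line of tongue squamous cell carcinoma. The members were ITGA6, ITGB4, DST, PLEC, COL17A1, COL7A1, LAMA3, LAMB3 and CD151. They were chosen by their known place in this structure, with earlier results of these data known. They are 9 of 18757 genes named on the array and are read by 13 of 53103 gene probes. The labels give 1 one-colour array, labelled with Cy5, for each of 6 groups of HSC3 cells: MIA siRNA, MIA2 siRNA, TANGO siRNA, MATE2 siRNA, LEMD1 siRNA and control. The labels TANGO and MATE2 stand for the genes MIA3 and SLC47A2. The control cells are called untreated in the array methods of the study and are listed with a control siRNA in the deposited design, so whether they carried an siRNA is not settled. The study set LEMD1 siRNA cells beside control cells to find genes that move with LEMD1, and the other 4 arrays are of the same deposit. All 6 groups are the same cell line, and neither time nor dose of siRNA is given in the labels.

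A hemidesmosome ties the keratin filaments of a basal epithelial cell to the basement membrane beneath it. Inside the cell, plectin and the epithelial form of dystonin link keratin to the integrin α6β4, which with collagen XVII and the tetraspanin CD151 spans the membrane and binds laminin 5, of which LAMA3 and LAMB3 encode chains. Laminin 5 in turn holds the end of the anchoring fibrils, made of collagen VII, which loop into the connective tissue. The same parts are known for their role in the attachment and the invasion of squamous carcinoma cells.

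The value of a probe is its normalized signal, the intensity of the spot above local background after quantile normalization over the 6 arrays, and ratios to the control array are given on the log2 scale. As each group has 1 array, no replicates check the ratios, which carry neither an error nor a p-value. Calls of lower or higher follow a rule of size: a 2-fold difference or more (1 or more on the log2 scale, either way) between arrays on both of which the scanner software flagged the spot good. Between 27545 and 30628 gene probes an array were good. The robust SD of the log2 ratio over all probes was 0.29 on the MIA siRNA array, 0.49 on the MIA2 siRNA array, 0.54 on the TANGO siRNA array, 0.52 on the MATE2 siRNA array and 0.38 on the LEMD1 siRNA array, each against control, a spread in which real changes and noise are mixed. The 5 comparisons share the control array, so an odd value there enters all of them.

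The targets of the siRNAs bear out some labels and not others. SLC47A2 had a signal of 79.6 on the array labelled MATE2 siRNA and 58.9 on the array labelled TANGO siRNA, against 1510 on control. LEMD1 was near background on the arrays labelled LEMD1 siRNA and MIA2 siRNA, against 278 on control, and had 3192 on the array labelled TANGO siRNA and 1011 on the array labelled MATE2 siRNA. MIA2 had 169 on the array labelled MIA2 siRNA and 155 on control, MIA was near background on all 6 arrays, and no probe is named MIA3. All 10 named markers of squamous epithelium were good on all 6 arrays. Their summed signal was 35589 on the MIA siRNA array, 43927 on the MIA2 siRNA array, 16901 on the TANGO siRNA array, 16653 on the MATE2 siRNA array and 47168 on the LEMD1 siRNA array, against 32616 on control. Bright keratins such as KRT8 (10524 on control) and KRT18 (8785) weigh most in this sum. The median log2 ratio of the 10 markers was 0.373 on the TANGO siRNA array (3 lower, 2 higher). On the MATE2 siRNA array it was 0.035 (2 lower, 3 higher). It was 0.185, 0.191 and 0.538 on the MIA, MIA2 and LEMD1 siRNA arrays. Of the markers of other cells, COL3A1 and DCN of fibroblasts, CDH5, KDR and TEK of endothelium, PTPRC and ITGAM of leukocytes and MLANA of melanocytes were good on no array. The markers good on all 6 arrays were 4 of 8 for fibroblasts (summed signal 611 to 1040), 1 of 5 for endothelium (404 to 612), 1 of 5 named for leukocytes (193 to 336) and 1 of 3 for melanocytes (163 to 309), and the part of these levels in the values of the members was not tested. In bulk RNA, fewer cells of a type and less RNA per cell cannot be told apart.

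The members of this structure had probes past 2-fold on 4 of the 5 siRNA arrays. On the LEMD1 siRNA array 8 of 12 member probes lay below control, although more were called higher than lower there. The lowest ratio was that of LAMA3, a gene of laminin 5, at 10.2-fold below control on the TANGO siRNA array, and the highest that of the anchoring fibril collagen COL7A1, at 4.46-fold above control on the LEMD1 siRNA array. On the MIA siRNA array none of 13 good member probes was called, beside 0.907% of all 26688 probes good on both arrays (0.318% lower and 0.588% higher), and their median log2 ratio was -0.17 beside -0.01 over all probes. On the MIA2 siRNA array 4 of 12 were lower and 1 higher (41.7%, beside 6.63% of 25898 probes, 3.74% lower and 2.88% higher), with a median of -0.58 beside 0.05. On the TANGO siRNA array 3 of 11 were lower and none higher (27.3%, beside 11.0% of 26354, 6.43% lower and 4.58% higher), with a median of -0.64 beside 0.03. On the MATE2 siRNA array 6 of 12 were lower and 1 higher (58.3%, beside 12.6% of 26648, 7.55% lower and 5.05% higher), with a median of -1.01 beside 0.05. On the LEMD1 siRNA array 1 of 12 was lower and 3 higher (33.3%, beside 4.14% of 27466, 2.57% lower and 1.56% higher), with a median of -0.28 beside 0.01. The members are few and some share a gene, so these shares describe the probes and no test stands behind them.

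**Figure D1:**
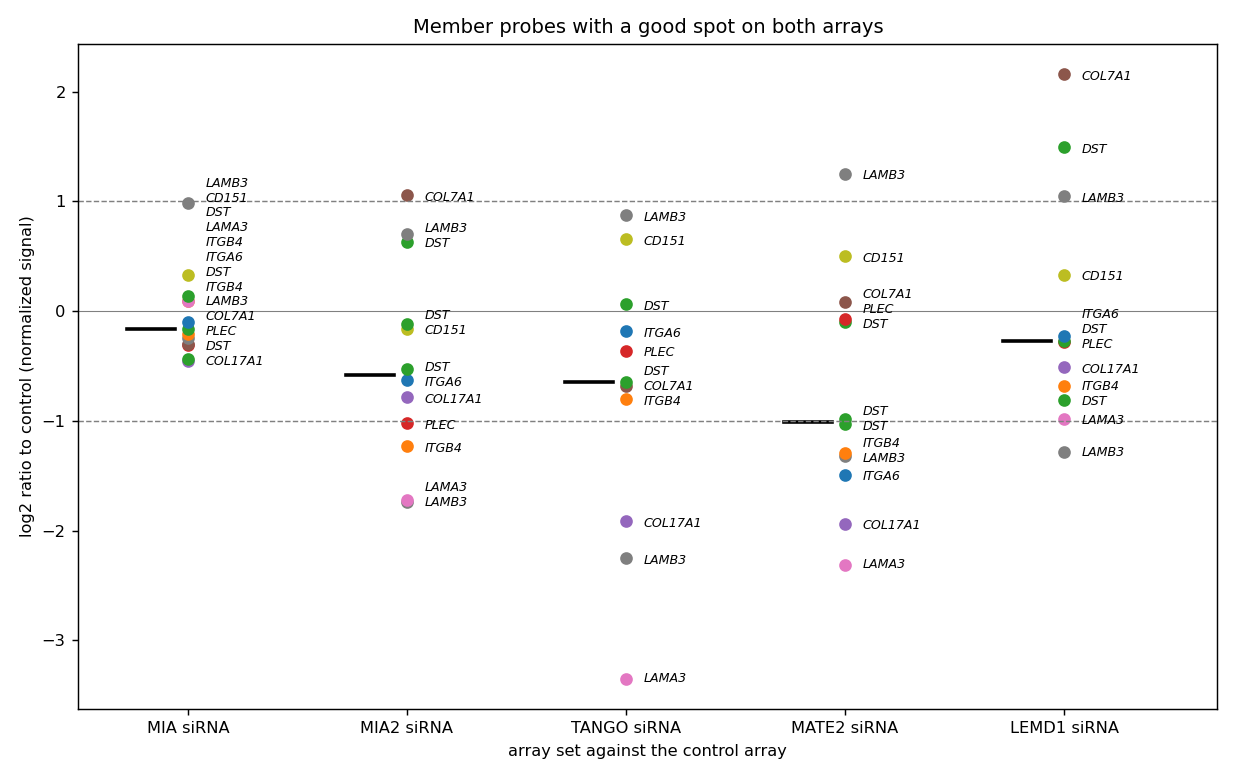
Log2 ratio to control (y axis) of each member probe that was good on both arrays, for the 5 siRNA arrays (x axis, 1 array each), 1 point a probe in the colour of its gene, with names in the order of the points, a black bar at the median and dashed lines at 2-fold. The medians lie at -0.17, -0.58, -0.64, -1.01 and -0.28 from left to right, and COL7A1 on the LEMD1 siRNA array (2.16) and LAMA3 on the TANGO siRNA array (-3.35) are the extremes.

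The stretches of DNA ahead of the members' start sites are shown first for the genes whose signal moved most. Start sites of 6 of the 9 members (ITGA6, DST, COL17A1, COL7A1, LAMA3 and LAMB3) were taken from the RefSeq table of promoters (GRCh38.p14), with 11 windows of 250 bases that end just before a start. ITGB4 and CD151 were not matched. The chromosome of PLEC was left out for the members, though not for the shares over all windows, so no window of PLEC is shown or counted. Each window was searched on both strands for TGANTCA, the motif of the transcription factor AP-1, and for GGGCGG, the GC box bound by Sp1. No match of one motif overlapped a match of the other in the windows shown. The AP-1 motif was in 2 of the 11 windows and in 6.57% of all 35116 windows of the table, and the GC box in 7 of the 11 and in 42.6% of all. In the lines that follow, capitals mark a match to either motif (CCGCCC is the GC box on the other strand). LAMA3, a chain of laminin 5, is at chr18:23872770-23873019 on the plus strand, LAMB3, a chain of the same laminin, by the third of its starts at chr1:209651375-209651624 on the minus strand, COL7A1, the anchoring fibril collagen, at chr3:48595330-48595579 on the minus strand and COL17A1, the transmembrane collagen, at chr10:104085881-104086130 on the minus strand.
LAMA3: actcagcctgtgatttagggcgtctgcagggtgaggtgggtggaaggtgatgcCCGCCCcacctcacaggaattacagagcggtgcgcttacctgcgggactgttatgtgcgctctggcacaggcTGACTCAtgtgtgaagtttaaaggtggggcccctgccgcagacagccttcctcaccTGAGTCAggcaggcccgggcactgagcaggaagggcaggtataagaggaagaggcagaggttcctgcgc
LAMB3: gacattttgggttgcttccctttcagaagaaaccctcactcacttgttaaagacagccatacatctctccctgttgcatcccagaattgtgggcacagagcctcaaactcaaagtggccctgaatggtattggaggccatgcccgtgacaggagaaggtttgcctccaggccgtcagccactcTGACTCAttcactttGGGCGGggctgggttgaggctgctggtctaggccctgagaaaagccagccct
COL7A1: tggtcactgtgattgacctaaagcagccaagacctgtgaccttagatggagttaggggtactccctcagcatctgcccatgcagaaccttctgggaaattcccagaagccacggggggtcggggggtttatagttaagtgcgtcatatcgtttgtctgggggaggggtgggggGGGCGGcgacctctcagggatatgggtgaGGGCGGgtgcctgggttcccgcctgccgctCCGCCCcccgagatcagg
COL17A1: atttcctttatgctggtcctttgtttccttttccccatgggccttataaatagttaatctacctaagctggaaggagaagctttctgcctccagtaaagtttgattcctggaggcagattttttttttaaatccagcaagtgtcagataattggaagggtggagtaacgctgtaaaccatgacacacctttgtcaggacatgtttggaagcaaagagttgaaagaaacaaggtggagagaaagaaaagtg
The LAMA3 window held 2 AP-1 motifs, which begin 125 and 69 bases before the start, and a GC box. Windows with 2 or more AP-1 motifs made up 0.402% of the table. The LAMB3 window held 1 AP-1 motif, 67 bases before its start, with a GC box 52 bases before it, and the windows of the other 2 LAMB3 starts, which overlap and share a GC box, held no AP-1 motif. The COL7A1 window held 3 GC boxes, 77, 48 and 18 bases before the start, and no AP-1 motif, and the COL17A1 window held neither. A match is a description of these letters, and binding was not measured.

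LAMA3 varied most over the arrays. This gene encodes the α3 chain, the part of laminin 5 that integrin α6β4 binds, and its probe (GE60095) was named through the sequence record of the short form of the chain. The signal was 4621 on the MIA siRNA array, 1314 on the MIA2 siRNA array, 425 on the TANGO siRNA array, 872 on the MATE2 siRNA array and 2194 on the LEMD1 siRNA array, against 4327 on control. The MIA siRNA array was level with control and the other 4 were lower, the TANGO siRNA array by most. The fall was 10.2-fold on the TANGO siRNA array (log2 ratio -3.35), rank 25 from the lowest of 26354 probes. It was 4.96-fold on the MATE2 siRNA array (-2.31) and 3.29-fold on the MIA2 siRNA array (-1.72). On the LEMD1 siRNA array the 1.97-fold difference (-0.98) stayed just inside the 2-fold rule. On the TANGO siRNA array LAMA3 was at least 2-fold lower than on each of the 5 other arrays, the closest being the MATE2 siRNA array at 2.05-fold. Of 23444 probes good on all 6 arrays, 162 were lower on the TANGO siRNA array in this way.

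LAMB3, which encodes the β3 chain, was read by 2 probes that disagreed. The brighter probe (GE60528), made to the transcript record, had a signal of 1209 on the MIA siRNA array, 429 on the MIA2 siRNA array, 301 on the TANGO siRNA array, 573 on the MATE2 siRNA array and 587 on the LEMD1 siRNA array, against 1432 on control. It was lower on 4 arrays, by 4.76-fold on the TANGO siRNA array (-2.25), 3.34-fold on the MIA2 siRNA array (-1.74), 2.50-fold on the MATE2 siRNA array (-1.32) and 2.44-fold on the LEMD1 siRNA array (-1.29). The MIA siRNA array differed from control by -0.24. The dimmer probe (GE84101), made to an expressed sequence tag, had 102 on the MIA siRNA array, 83.6 on the MIA2 siRNA array, 94.6 on the TANGO siRNA array, 123 on the MATE2 siRNA array and 107 on the LEMD1 siRNA array, against 51.5 on control. Here control was below every siRNA array, and the MATE2 and LEMD1 siRNA arrays passed the rule as higher (1.25 and 1.05). Against the MIA siRNA array in place of control, these ratios of the dimmer probe were 0.26 on the MATE2 siRNA array and 0.06 on the LEMD1 siRNA array. LAMB3 was the 1 gene of 2064 with at least 2 good probes that had opposite 2-fold calls on the LEMD1 siRNA array, and 1 of 9 among 1921 on the MATE2 siRNA array. Which transcript the dimmer probe reads was not tested.

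**Figure D2:**
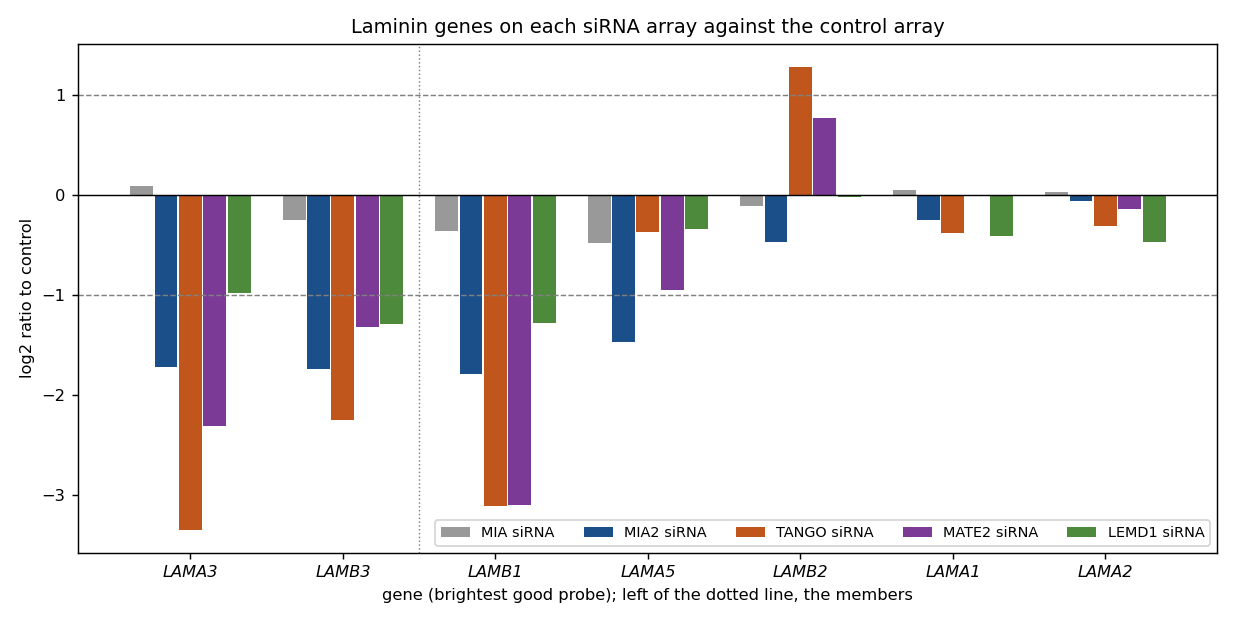
Log2 ratio to control (y axis) of the brightest good probe of 7 laminin genes (x axis, the members left of the dotted line) on the 5 siRNA arrays, 1 array each, with dashed lines at 2-fold. LAMA3 reaches -3.35 and LAMB1 -3.11 on the TANGO siRNA array, LAMB2 stands at 1.28 there, and LAMA1 and LAMA2 stay between the dashed lines on all 5 (the LAMA1 bar of the MATE2 siRNA array is -0.01).

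The other basement membrane genes did not move as a block. The list read here holds 21 genes, of which 13 or 14 could be measured in a comparison, and none was changed on the MIA siRNA array. On the MIA2 siRNA array 2 were lower and none higher, on the TANGO siRNA array 1 was lower and 3 higher, and on the MATE2 and LEMD1 siRNA arrays 1 was lower and none higher. The median log2 ratio of the list lay between -0.02 (MIA2 siRNA) and 0.14 (TANGO siRNA). LAMB1, the β1 chain of laminins of many tissues, fell on all 4 of those arrays, to 181 on the MIA2 siRNA array, 72.5 on the TANGO siRNA array, 72.9 on the MATE2 siRNA array and 257 on the LEMD1 siRNA array, against 626 on control. The other lower gene on the MIA2 siRNA array was LAMA5, the α5 chain found under most adult epithelia, at 3026 against 8379 on control (-1.47). On the TANGO siRNA array COL4A6 and COL4A5, which encode network collagens of basement membranes, were higher (1.80 and 1.29), and so was LAMB2, the β2 chain, by its brightest probe (1.28), while its other good probe gave 0.43.

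COL7A1, the collagen of the anchoring fibrils, went the other way. Its signal was 258 on the MIA siRNA array, 657 on the MIA2 siRNA array, 197 on the TANGO siRNA array, 336 on the MATE2 siRNA array and 1414 on the LEMD1 siRNA array, against 317 on control. The LEMD1 siRNA array stood above all others and the MIA2 siRNA array came next. The rise was 4.46-fold on the LEMD1 siRNA array (log2 ratio 2.16), rank 28 from the highest of 27466 probes, and 2.08-fold on the MIA2 siRNA array (1.05). The LEMD1 siRNA array had at least 2-fold more COL7A1 signal than each other array, from 2.15-fold over the MIA2 siRNA array to 7.17-fold over the TANGO siRNA array. Only 6 of the 23444 probes good on all 6 arrays were higher on the LEMD1 siRNA array in this way. The ratios on the TANGO siRNA array (-0.68), the MIA siRNA array (-0.30) and the MATE2 siRNA array (0.08) did not pass the rule. A second probe that the platform table gives to both UCN2 and COL7A1 was made to the UCN2 record and was not counted. It had 46.9, 61.2, 33.5, 50.9 and 24.1 on the MIA, MIA2, TANGO, MATE2 and LEMD1 siRNA arrays, against 39.3 on control. It was near background on the TANGO and LEMD1 siRNA arrays, so it showed no rise on the latter.

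MIA3 is known for loading collagen VII into transport vesicles at the endoplasmic reticulum, so a list of 16 genes of large cargo export was read beside COL7A1. Of these, 12 to 14 could be measured. On the TANGO siRNA array SEC13, a coat protein of these vesicles, was higher (1.09), and PREB, which starts the assembly of the coat, had 1.03 by its brightest probe and -0.02 by its other good probe. SEC13 was also higher on the MATE2 siRNA array (1.51). None of the measured genes of this list passed the rule on the MIA, MIA2 or LEMD1 siRNA array, and none was lower on any.

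**Figure D3:**
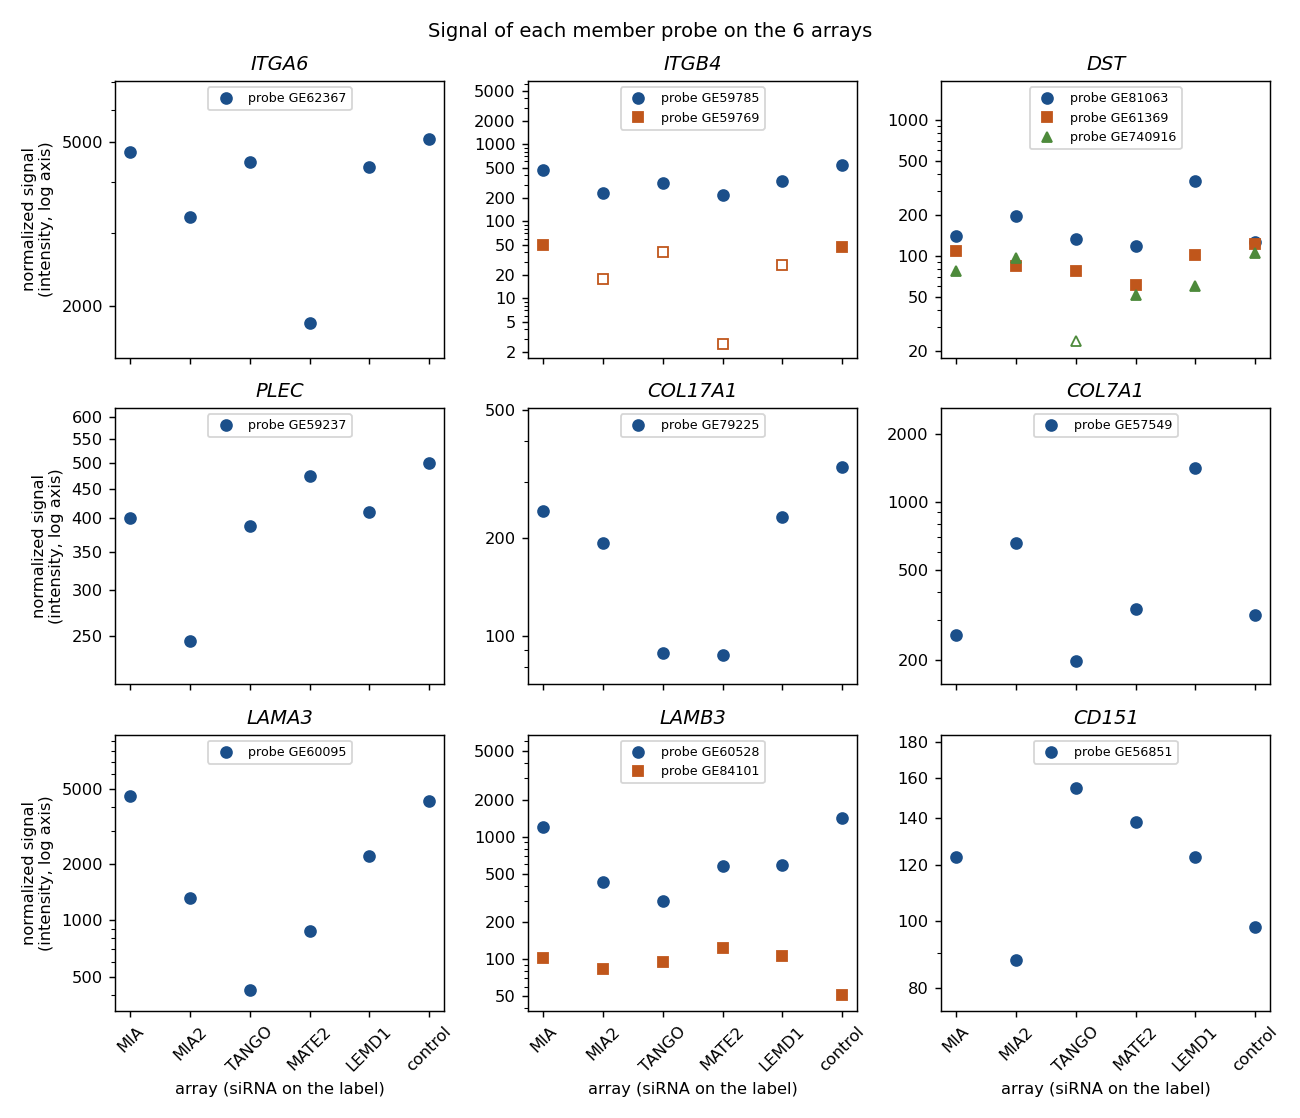
Normalized signal (y axis, log scale) of the 13 member probes on the 6 arrays (x axis, the siRNA on the label, control at the right), 1 array a group, filled points for good spots and open points for spots near background. COL7A1 reaches 1414 on the LEMD1 siRNA array, and LAMA3 drops to 425 on the TANGO siRNA array. Of the 6 arrays, control is the highest by the brighter LAMB3 probe and the lowest by the dimmer.

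The transmembrane members were lower on fewer arrays than LAMA3 and LAMB3. ITGA6, the α6 chain of the integrin, had a signal of 4743 on the MIA siRNA array, 3298 on the MIA2 siRNA array, 4491 on the TANGO siRNA array, 1813 on the MATE2 siRNA array and 4345 on the LEMD1 siRNA array, against 5097 on control. The MATE2 siRNA array alone passed the rule, at 2.81-fold lower (-1.49), and the next lowest, the MIA2 siRNA array, had -0.63. ITGB4, the β4 chain, which carries the long tail that plectin binds, had 470 on the MIA siRNA array, 232 on the MIA2 siRNA array, 311 on the TANGO siRNA array, 222 on the MATE2 siRNA array and 338 on the LEMD1 siRNA array, against 543 on control, by its brighter probe (GE59785). It was 2.44-fold lower on the MATE2 siRNA array (-1.29) and 2.34-fold lower on the MIA2 siRNA array (-1.23). The ratios of -0.80 on the TANGO siRNA array and -0.68 on the LEMD1 siRNA array did not pass.

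A dimmer ITGB4 probe (GE59769) was good on the MIA siRNA array (50.2) and on control (47.2) and near background on the other 4. For such a spot, the array's lowest good signal (27.5 to 38.6 over the 5 siRNA arrays), or the spot's own signal where that is higher, was set against control, so the fold is a lower bound. This gave at least 1.72-fold on the LEMD1 siRNA array, 1.50-fold on the MATE2 siRNA array, 1.22-fold on the MIA2 siRNA array and 1.18-fold on the TANGO siRNA array, all lower than control. With control good and the other spot near background, such a bound can only point lower. Its direction is therefore no separate check of the brighter probe, and none of the bounds reaches 2-fold.

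COL17A1, the collagen that spans the membrane in type I hemidesmosomes, had a signal of 243 on the MIA siRNA array, 194 on the MIA2 siRNA array, 88.3 on the TANGO siRNA array, 86.9 on the MATE2 siRNA array and 234 on the LEMD1 siRNA array, against 333 on control. The TANGO and MATE2 siRNA arrays lay together and below the other 4. The fall was 3.83-fold on the MATE2 siRNA array (-1.94) and 3.77-fold on the TANGO siRNA array (-1.91), and both were at least 2.19-fold below the MIA2 siRNA array, the next lowest. The other 3 arrays had ratios of -0.46 to -0.78. The extracellular part of collagen XVII is shed by ADAM proteases, of which ADAM9 was lower on the TANGO siRNA array (-1.69) and the MATE2 siRNA array (-1.29), and ADAM10 on the MIA2 siRNA array by its brighter probe (-1.01) with -0.99 by the other. On the TANGO siRNA array the brighter ADAM10 probe gave -0.78 and the other -1.04.

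CD151, the tetraspanin that binds laminin receptors of the integrin family, did not pass the rule on any array by the probe that names it alone (GE56851). Its signal was 123 on the MIA siRNA array, 87.8 on the MIA2 siRNA array, 154 on the TANGO siRNA array, 138 on the MATE2 siRNA array and 123 on the LEMD1 siRNA array, against 98.0 on control. The log2 ratios lay between -0.16 and 0.66. A brighter probe made to a CD151 record, which the platform table gives to METTL21A as well, had 988, 801, 733, 512 and 818 on the MIA, MIA2, TANGO, MATE2 and LEMD1 siRNA arrays, against 1160 on control. It was left out of the counts because it has several names. On the MATE2 siRNA array it was lower (-1.18), where the other probe gave 0.50, so the direction of CD151 there depends on the probe.

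The plakins inside the cell gave the most mixed values. DST, which encodes dystonin, was read by 3 probes. The probe made to the record of the epithelial form, the hemidesmosome plakin BPAG1e (GE81063), had 140 on the MIA siRNA array, 197 on the MIA2 siRNA array, 132 on the TANGO siRNA array, 118 on the MATE2 siRNA array and 357 on the LEMD1 siRNA array, against 127 on control. It was 2.81-fold higher on the LEMD1 siRNA array (1.49), rank 120 from the highest of 27466, and within 0.63 of control on the other 4.

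The second DST probe (GE61369), made to another transcript record of the gene, had 109 on the MIA siRNA array, 84.2 on the MIA2 siRNA array, 77.8 on the TANGO siRNA array, 61.35 on the MATE2 siRNA array and 101 on the LEMD1 siRNA array, against 122 on control, and was called on none (lowest ratio -0.99, on the MATE2 siRNA array). The third (GE740916) had 77.2 on the MIA siRNA array, 96.1 on the MIA2 siRNA array, 51.2 on the MATE2 siRNA array and 59.8 on the LEMD1 siRNA array, against 104 on control, and was near background on the TANGO siRNA array, at least 3.33-fold lower. It was 2.04-fold lower on the MATE2 siRNA array (-1.03). The rise on the LEMD1 siRNA array was thus seen by the epithelial-form probe, while the other 2 gave -0.27 and -0.81. The study lists DST among its most upregulated genes in LEMD1 knockdown cells, at a larger fold than any of these probes gave.

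PLEC, plectin, the plakin that ties integrin β4 to keratin, had a signal of 401 on the MIA siRNA array, 245 on the MIA2 siRNA array, 388 on the TANGO siRNA array, 475 on the MATE2 siRNA array and 410 on the LEMD1 siRNA array, against 498 on control. The MIA2 siRNA array was lowest and passed the rule by a little, at 2.03-fold lower (-1.02). The other 4 arrays lay between -0.36 and -0.07.

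The keratins that these plakins hold were read beside them. KRT5 and KRT14, which pair in basal epithelial cells, are in the list of partners and other laminin receptors, of whose 8 genes 7 were measured. KRT5 had 1867 on the MIA siRNA array, 12772 on the MIA2 siRNA array, 4837 on the TANGO siRNA array, 3283 on the MATE2 siRNA array and 14792 on the LEMD1 siRNA array, against 1558 on control. KRT14 had 6483 on the MIA siRNA array, 16780 on the MIA2 siRNA array, 309 on the TANGO siRNA array, 2812 on the MATE2 siRNA array and 14440 on the LEMD1 siRNA array, against 5354 on control. Both keratins were higher on the MIA2 siRNA array (3.04 for KRT5 and 1.65 for KRT14) and on the LEMD1 siRNA array (3.25 and 1.43), the arrays on which COL7A1 was higher. KRT5 was higher as well on the MATE2 siRNA array (1.08), where COL7A1 had 0.08. On the TANGO siRNA array KRT5 was higher (1.63) and KRT14 lower (-4.12).

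The other laminin receptors were lower where they passed, and DAG1 passed on no array. DAG1 stayed just inside the rule on the LEMD1 siRNA array (0.998), and its other ratios lay between -0.38 (MIA siRNA) and 0.62 (MIA2 siRNA). ITGA3 and ITGB1, the chains of integrin α3β1, which also binds laminin 5, were lower on the MIA2 siRNA array (-1.12 and -1.02) and on the MATE2 siRNA array (-1.71 and -1.25), and ITGB1 on the TANGO siRNA array (-1.24). ERBIN, which binds the tail of integrin β4, was lower on the TANGO siRNA array (-1.44) and the MATE2 siRNA array (-2.27), and FERMT1, an activator of β1 integrins, on the MATE2 siRNA array (-2.64). On the LEMD1 siRNA array 2 of the 7 measured genes, the keratins KRT5 and KRT14, were higher and none was lower. On the MIA siRNA array none was called. Of the 12 genes of shedding and matrix processing 9 were measured. SERPINH1, the collagen chaperone HSP47, was higher on the TANGO siRNA array (3.12, and 1.95 by its other probe), the MATE2 siRNA array (2.70 and 1.12) and the LEMD1 siRNA array (1.22 and 0.43). PLOD3, which modifies lysines of collagen, was lower on the MIA2 siRNA array (-1.38).

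By gene, with the brightest probe for each, the profile over the 5 ratios was nearest between ITGA6 and ITGB4, the 2 chains of 1 integrin, with a root mean square difference of 0.45 on the log2 scale, and next between COL7A1 and DST (0.53). LAMA3 and LAMB3 differed by 0.69, and COL7A1 and LAMA3 were farthest apart, by 2.47. Among 13276 probes of other named genes good on all 6 arrays, those nearest to LAMA3, the member with the widest range (3.44), were CHLSN (0.28), KANK2 (0.35) and KRT18 (0.37, by its dimmer probe). CHLSN had log2 ratios of 0.05, -1.67, -3.03, -2.41 and -1.51 on the MIA, MIA2, TANGO, MATE2 and LEMD1 siRNA arrays. These distances are over 5 arrays that share 1 control and are a description.

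Most calls held over the scalings and background corrections tried, and some near 2-fold or of dim probes did not. COL7A1 on the LEMD1 siRNA array stayed between 1.97 and 2.22 over 7 settings and LAMA3 on the TANGO siRNA array between -3.54 and -3.15 over 6, all past 2-fold. The epithelial-form probe of DST on the LEMD1 siRNA array stayed between 1.14 and 1.51. COL7A1 on the MIA2 siRNA array was past 2-fold in 4 of 7 settings, and PLEC on the MIA2 siRNA array in 3 of 7. The dimmer LAMB3 probe was in 4 of 7 on the LEMD1 siRNA array and in 3 of 6 on the MATE2 siRNA array, and the third DST probe in 3 of 6 on the MATE2 siRNA array. LAMA3 on the LEMD1 siRNA array, not called here, passed in 1 of 7.

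**Figure D4:**
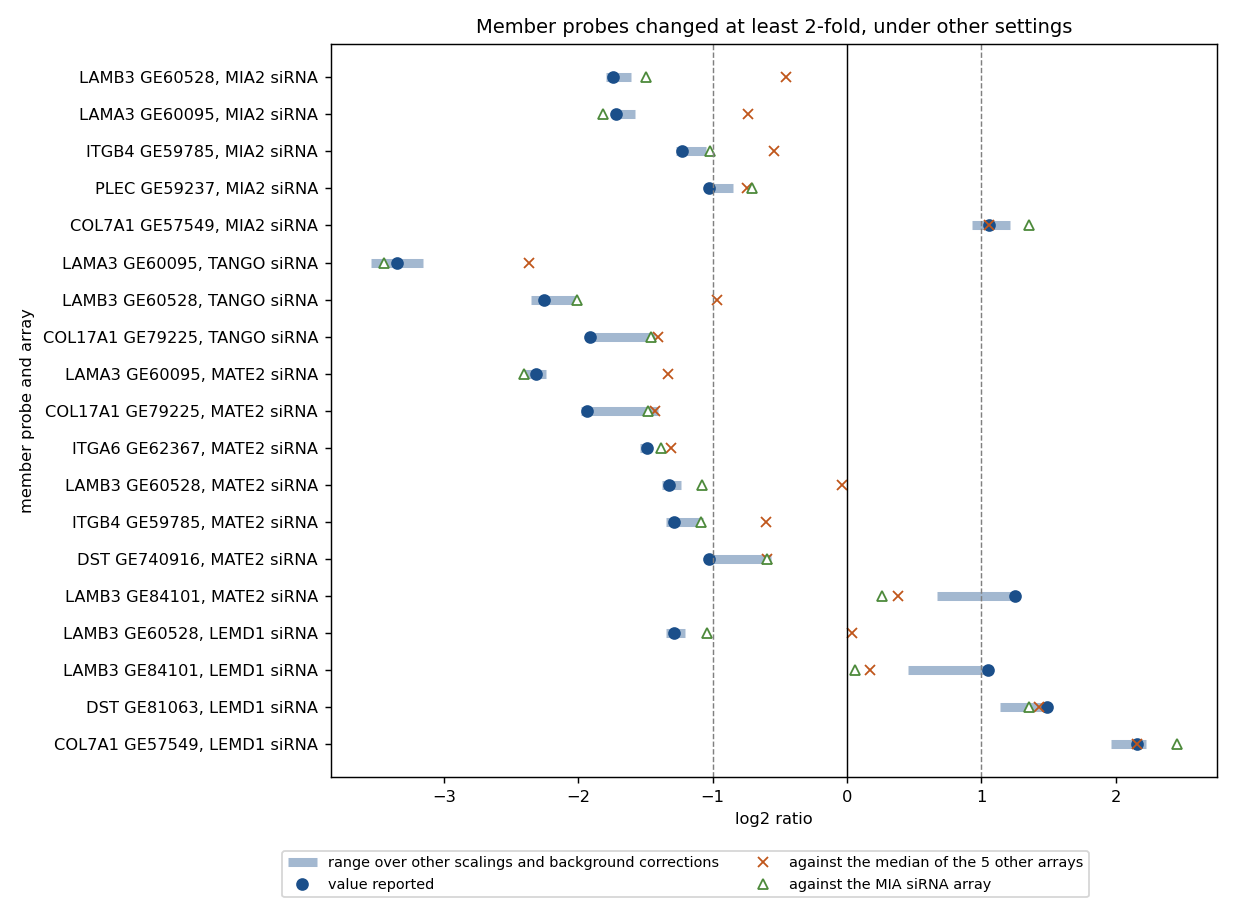
Log2 ratios (x axis) of the 19 member probe calls (y axis, gene, probe and array): the value reported (circle), its range over other scalings and background corrections (bar), the ratio to the median of the 5 other arrays (cross) and the ratio to the MIA siRNA array (triangle), with dashed lines at 2-fold. The crosses of the brighter LAMB3 probe move to the right the most, and those of the dimmer LAMB3 probe move to the left. The crosses of COL7A1 stay on the reported values of 2.16 and 1.05.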

How the data were processed

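Total RNA of HSC3 cells was hybridized to 6 CodeLink Human Whole Genome Bioarrays, 1 array a group, and groups were taken from the labels. The values used are the raw spot intensities of the deposited scanner output, given as the spot mean less the median of the local background (checked to within 1e-04). The authors report quantile normalization of their own, and the deposited normalized values served here only as an alternative. Here 320 gene probes masked on any array were left out, the intensity was quantile normalized over the 6 arrays with limma 3.58.1 in R 4.3.3, values under 1 were set to 1, and log2 was taken. Ratios were computed in Python 3.11.15. Of 53103 gene probes, 23311 were named from the platform table and 649, COL17A1 and LAMA3 among them, from the accession in the scanner file; 898 with several names were not used. The brightest probe stands for a listed gene, and at most the 3 largest changes an array and list were named, besides all members. Any gene named beyond these was picked with its values in view. The 2-fold rule was run on simulated data with changes well past and well inside 2-fold only, so calls near 2-fold were not checked. The members and lists were chosen with earlier results of these data known. Alternatives were other normalizations, background corrections, filters, pseudocounts and comparators. The number of arrays limits the precision. One item of the basement membrane list is not reported here.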

Additional observations from a re-analysis of the deposited data

How the results depend on the processing

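Every comparison rests on 1 array against 1, so nothing could be left out and slide and group cannot be told apart. No paired analysis was possible because the groups share only 1 replicate number. Of 503 member probe ratios under the alternatives, 459 kept their value within the spread, 43 moved and 1 reversed. A change of sign was counted as reversed only for a ratio past 2-fold. The reversed ratio was that of the brighter LAMB3 probe on the LEMD1 siRNA array. It was 0.035 on the log2 scale when the median of the 5 other arrays replaced control. Smaller ratios that changed sign were counted as kept or moved. LAMA3 on the LEMD1 siRNA array, for example, went from -0.98 to 0.74 with the same comparator. With that comparator the count of changed member probes was 2 for MIA siRNA (0 against control), 1 for MIA2 siRNA (5), 3 for MATE2 siRNA (7) and 2 for LEMD1 siRNA (4). The share of all probes called was then 1.52%, 2.96%, 8.46% and 2.04%, against 0.907%, 6.63%, 12.6% and 4.14% with control. For MIA siRNA the count was 1 with median scaling and 1 with quantile normalization of the pair of arrays alone, where 0.970% and 0.967% of all probes were called. For MIA2 siRNA it was 3, all lower, with normexp, with no background correction and with 50 added to the signal, where 3.34%, 2.95% and 3.44% of all probes were called. For TANGO siRNA it stayed between 2 and 4. The cause of these shifts was not tested. Median scaling moved the median log2 ratio of all probes on the MIA2 siRNA array to 0.11. The calls over all probes there were then 817 lower and 1063 higher, against 969 and 747. For LEMD1 siRNA median scaling gave 2 lower and 3 higher member probes, against 1 and 3. The share of all probes called was then 4.17%, against 4.14%. The CD151 probe shared with METTL21A, added after seeing the data, raised the MATE2 siRNA count to 8 of 13, beside 12.6% of all probes. Signal over background limits the dim probes of ITGB4, DST and LAMB3.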

Other observations

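Some markers of squamous epithelium, summed in the report, moved apart from each other, and the keratins of simple epithelia among them were lower on several arrays. KRT8 had a signal of 9560 on the MIA siRNA array, 3870 on the MIA2 siRNA array, 1594 on the TANGO siRNA array, 1589 on the MATE2 siRNA array and 6075 on the LEMD1 siRNA array, against 10524 on control. Its partner KRT18 had 10524, 3465, 1935, 2066 and 4210 by its brighter probe on the same arrays, against 8785 on control. Both were at least 2-fold lower on the MIA2, TANGO and MATE2 siRNA arrays, KRT18 also on the LEMD1 siRNA array. DSG3, the cadherin of desmosomes in stratified epithelia, had 1613 on the TANGO siRNA array and 389 on the MATE2 siRNA array, against 133 on control. KRT17 had 666 on the MATE2 siRNA array, against 83.2 on control.

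The genes nearest to COL7A1 over the 5 log2 ratios were looked up after its values had been seen. They were AURKA, a kinase of mitosis (root mean square difference 0.28), FAM83D (0.31) and CDC20, an activator of the anaphase-promoting complex (0.38). On the LEMD1 siRNA array these had log2 ratios of 1.80, 1.93 and 1.61, and on the MIA2 siRNA array 1.10, 1.33 and 1.33. Whether they move with COL7A1 in other samples was not tested.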
